A study of Mus musculus with 2 samples.

Results

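Plac8, Car7, Rnf128 and Fezf1 are 4 genes of mouse taste cells that were chosen by earlier values of the fungiform cells studied here, in which they went with bitter receptors. They are 4 of the 21888 genes listed in either of 2 libraries, and both libraries list all 4. The values below describe how each gene went with bitter receptors and with the sweet and umami subunit Tas1r3 in the circumvallate papilla (CV), the library that did not choose them, set against the fungiform papillae (FP). Because the FP values chose the genes, the FP values are a description. The sorted cells came from adult α-gustducin-GFP mice on a C57BL/6J background, with 1 library of GFP-positive cells from CV and 1 from FP. GFP marks cells that use α-gustducin, a G protein subunit of taste transduction and the product of Gnat3. Taste cells without GFP are outside the sort. Barcodes with little or no Gnat3 RNA were still in the libraries, and the limits given below left them out. The sources used here give no number of animals.

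Sweet, umami and bitter compounds are sensed by type II taste cells, which pass the signal from a G protein-coupled receptor through phospholipase Cβ2, the IP3 receptor Itpr3 and the cation channel Trpm5. Tas1r3 pairs with Tas1r2 as the sweet receptor and with Tas1r1 as the umami receptor, while bitter compounds are detected by the large Tas2r family, of which a bitter cell usually uses several. Fezf1 is a zinc finger transcription factor known for its role in the development of olfactory neurons and the forebrain. Car7 is a cytosolic carbonic anhydrase, an enzyme that interconverts carbon dioxide and bicarbonate and is best known in neurons. Plac8 is a small cysteine-rich protein known from blood cells and from differentiating epithelia. Rnf128, also called GRAIL, is a transmembrane RING ubiquitin ligase known from unresponsive T cells.

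On mm10 (GENCODE M21) the 4 protein-coding genes lie on 4 chromosomes. Plac8 spans chr5:100553725-100572245 on the minus strand and Car7 spans chr8:104534689-104550343 on the plus strand. Rnf128 spans chrX:139563316-139673145 on the plus strand and overlaps Gm24380 on the other strand. No source used here says whether counting used strand, and reads of that pair may not be separated. Fezf1 spans chr6:23245044-23248362 on the minus strand, and Tas2r118 lies 720.8 kb from it on the chromosome that carries 32 of the 34 Tas2r genes in the tables. Below are the 250 bases before the RefSeq transcript start (GRCm38.p6) of Fezf1 and Car7, 5′ to 3′ on the gene's own strand, shown because these genes had the widest pooled differences between CV cells with Tas1r3 on and off. The Fezf1 stretch is chr6:23248265-23248514 and holds 47.6% G and C, against a median of 52.4% over 32851 starts. The Car7 stretch is chr8:104534450-104534699, the RefSeq start nearest to the annotated gene end, and holds 69.6%. No base is in capitals, because neither motif searched was found.
Fezf1: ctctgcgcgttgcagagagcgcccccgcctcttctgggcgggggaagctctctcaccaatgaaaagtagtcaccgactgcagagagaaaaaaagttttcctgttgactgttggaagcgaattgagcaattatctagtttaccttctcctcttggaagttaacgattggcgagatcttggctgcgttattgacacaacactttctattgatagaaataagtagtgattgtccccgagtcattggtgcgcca
Car7: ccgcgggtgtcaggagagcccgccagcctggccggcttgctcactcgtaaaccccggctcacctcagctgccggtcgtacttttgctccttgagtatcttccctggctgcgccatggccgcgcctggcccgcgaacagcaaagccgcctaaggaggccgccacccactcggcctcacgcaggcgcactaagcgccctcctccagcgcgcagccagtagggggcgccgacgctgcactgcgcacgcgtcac

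The motifs were the octamer ATGCAAAT, the letters read by POU factors such as Pou2f3 of type II taste cells, and the TATA motif TATAAA, each on both strands and not overlapping each other. The octamer stood in 1.60% of the 32851 windows and the TATA motif in 12.4%, but in 0 windows of the 4 genes. Of the 30 Tas2r genes in the same table, 7 held the octamer and 8 the TATA motif. No match says only that these letters are not in the windows.

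Cells were kept where over 500 genes were detected and where ln(1 + Gnat3 counts per 10000) exceeded 0.9, which left 32 of 61 CV barcodes and 21 of 29 FP barcodes, with 0 barcodes shared. The deposited values are raw counts per gene and barcode. Kept cells summed to 29535917 counts in CV (32726 to 3447628 per cell, median 543963) and 22646953 in FP (193718 to 3190340, median 1141644). All 7 type II markers were present in both pools, and 29 of 32 CV cells and 21 of 21 FP cells had at least 3 of them on. Gnat3 is 1 of the 7, and the Gnat3 limit placed it on in every kept cell. Mitochondrial RNA took 1.63% to 88.6% of a CV cell and 8.17% to 68.0% of an FP cell. Of 6 CV barcodes whose numbers adjoin, 5 were kept, and values without them are given where they differ. With 1 library per papilla there is no replicate check and no test. All intervals are 95% and cover counting error only, and since molecular barcodes may not have been collapsed they may be too narrow.

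Plac8, Car7 and Fezf1 were each more than 4 times as high in pooled CV cells as in pooled FP cells, while Rnf128 was lower in CV. Plac8 stood at 2316 CPM, counts scaled to a total of 1000000 per pool, in CV (2299 to 2334), against 415 CPM in FP (407 to 424), a ratio of 5.58 (5.46 to 5.70). Car7 stood at 885 CPM in CV (874 to 896), against 215 CPM in FP (209 to 222), a ratio of 4.11 (3.98 to 4.24). Fezf1 stood at 735 CPM in CV (726 to 745), against 169.6 CPM in FP (164 to 175), a ratio of 4.34 (4.19 to 4.49). For these 3 genes the higher level in CV was many times the counting interval, but no replicate shows how libraries of 1 papilla vary.

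Rnf128 went the other way, with 146 CPM in CV (141 to 150), against 295 CPM in FP (288 to 302), a ratio of 0.494 (0.476 to 0.514). As log2 of CPM with 10 added, a scale that compresses the differences of low genes, the differences of CV over FP were 2.45 for Plac8, 1.99 for Car7, 2.05 for Fezf1 and -0.97 for Rnf128. So 3 of 4 were past 2-fold higher in CV and 0 of 4 past 2-fold lower. Of 10918 genes with at least 10 CPM in either pool, 21% were 2-fold higher in CV and 17% were 2-fold lower, with a median of 0.05.

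The pooled levels rest on some cells more than others. The highest cell held 58.7% of all FP counts of Fezf1 and 51.6% of those of Car7, but between 10.9% and 19.3% of the CV counts of each of the 4 genes. Without the highest cell of each library the Fezf1 difference was 3.06 and the Car7 difference 2.86. As a mean over cells instead of a pool, the differences were 1.71 for Plac8, 1.41 for Car7, 1.35 for Fezf1 and -1.57 for Rnf128. Directions of CV over FP were the same in each of these settings.

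Within each library the 4 genes were split between cells with high levels and cells with low levels or none. A gene is called on in a cell where it reaches 50 CPM. Plac8 was on in 20 of 32 CV cells (62.5%, 43.7% to 78.9%), against 11 of 21 FP cells (52.4%, 29.8% to 74.3%). Its cells ran from 0 to 4321 CPM with a median of 1131 in CV, and from 0 to 1790.5 CPM with a median of 219 in FP. The lowest Plac8 cell called on had 234 CPM and the highest called off 36.8 CPM in CV, against 219 and 34.9 CPM in FP. In CV these limits were 93.3 and 30.6 CPM for Car7, 94.0 and 46.7 CPM for Rnf128, and 116.8 and 43.5 CPM for Fezf1. A CV cell called off for Fezf1 held 150 counts of it.

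Car7 was on in 20 of 32 CV cells (62.5%), against 10 of 21 FP cells (47.6%, 25.7% to 70.2%), with a median of 356 CPM over CV cells and 2.51 CPM over FP cells. Rnf128 was on in 12 of 32 CV cells (37.5%, 21.1% to 56.3%), against 11 of 21 FP cells (52.4%), with a highest cell of 744 CPM in CV and 1694 CPM in FP. Fezf1 was on in 14 of 32 CV cells (43.8%, 26.4% to 62.3%), against 5 of 21 FP cells (23.8%, 8.22% to 47.2%). Among on cells alone its median was 1118 CPM in CV and 356 CPM in FP. The intervals of the shares overlap between papillae for each gene, and no test of the difference was made.

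**Figure D1:**
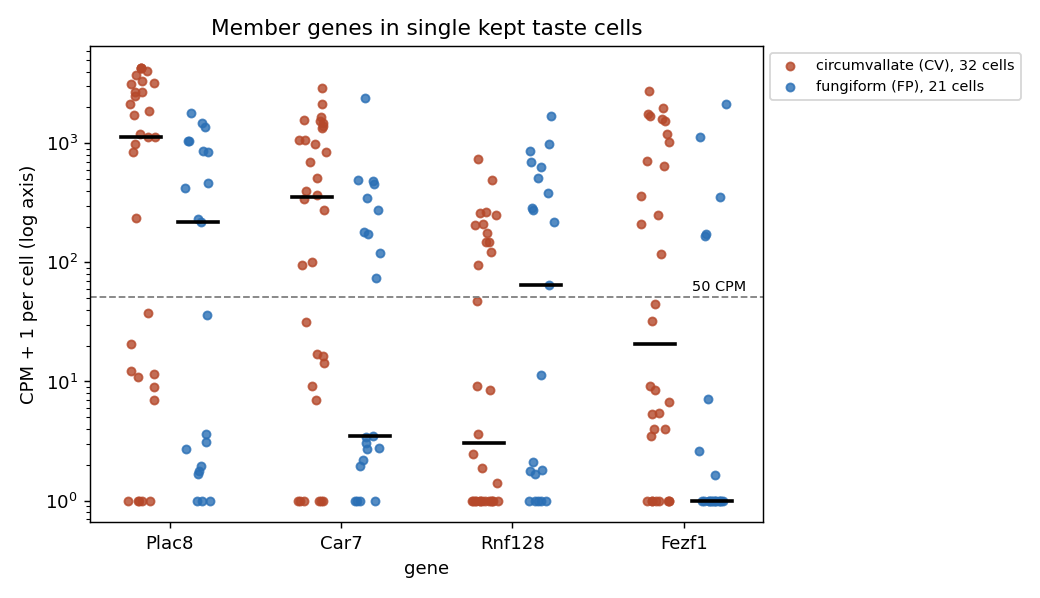
CPM + 1 of each gene in each kept cell on a log axis, with CV cells (32) left of FP cells (21), black bars at the medians and a dashed line at 50 CPM. Each gene splits into a high and a low set of cells, and the high CV cells of Plac8, Car7 and Fezf1 reach 4321, 2916 and 2750 CPM.

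Depth touches the low end of these calls. In the shallowest CV cell, 2 counts make 50 CPM, against 10 counts in the shallowest FP cell, and the lowest count of a CV cell called on was 5 for Fezf1 and 10 for Plac8. Among the 16 CV cells with at least 500000 counts, Plac8 was on in 16 (100%, 79.4% to 100%), Car7 in 15, Rnf128 in 12 and Fezf1 in 10. Among the 16 FP cells of that depth Plac8 was on in 9 (56.2%, 29.9% to 80.2%), Car7 in 8, Rnf128 in 9 and Fezf1 in 4. A count of 1 or more is a poorer sign of expression. The 7 FP barcodes with neither a Tas2r gene nor Tas1r3 on that the Gnat3 limit left out had keratinocyte markers of 55026 to 172411 CPM in sum, and a median of 1679949 counts. They held at least 1 count of Plac8 in 3, of Car7 in 4, of Rnf128 in 4 and of Fezf1 in 2, although none exceeded 3.26 CPM. The kept cells had at least 1 count of Fezf1 in 24 of 32 in CV and 8 of 21 in FP.

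A bitter receptor was on in 28 of the 32 kept CV cells, so the contrast by presence that chose the genes in FP had 4 CV cells on its other side. Fezf1 and Rnf128 were on only in CV cells that also had a Tas2r gene on, and Plac8 and Car7 were not restricted to them. Those 4 cells had 2403, 709, 587 and 757 genes detected. The share of all genes on in none of them was not counted, so this does not set Fezf1 and Rnf128 apart. Fezf1 was on in 14 of 28 CV cells with a Tas2r gene and in 0 of 4 without, which allows a share of up to 60.2%. Its pooled level was 752 CPM with a Tas2r gene (743 to 763), against 1.49 CPM without (0.0376 to 8.28). Rnf128 was on in 12 of 28 CV cells with a Tas2r gene and in 0 of 4 without, with 149 CPM against 0 counts in the cells without.

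Plac8 was on in 19 of 28 CV cells with a Tas2r gene and in 1 of 4 without, but its pooled level was close, at 2321 CPM with and 2124 CPM without, because that 1 cell reached 4321 CPM. Car7 was on in 18 of 28 CV cells with a Tas2r gene and in 2 of 4 without, while its pooled level was 878 CPM with and 1160.1 CPM without, so no order is read from it. The 2 CV cells with Car7 and no Tas2r gene had 1653 and 1405 CPM, with 33.5% and 88.6% of their counts mitochondrial. The cell of 1405 CPM had 757 genes detected and 173 CPM of Gnat3, the lowest of the kept CV cells, so it bears little weight. The 4 CV cells without a Tas2r gene were shallow. The 28 cells with one had a median of 893559.5 counts and these 4 a median of 145831.5, and the part of depth in these shares was not tested.

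In FP, where these values chose the genes, a Tas2r gene was on in 13 cells and in none of the other 8. Plac8 was on in 10 of 13 FP cells with a Tas2r gene and 1 of 8 without, and Car7 in 9 of 13 and 1 of 8. Rnf128 was on in 9 of 13 and 2 of 8, and Fezf1 in 5 of 13 and 0 of 8. Depth differed less there, with median totals of 1230364 counts with a Tas2r gene and 974799.5 without.

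CV cells were also sorted by how many Tas2r genes were on, a division made after the values were seen. All 4 genes were on most often in CV cells with 5 or more receptors. The share of all genes with this order was not counted, but 61.5% of 2418 genes had a correlation of 0.5 or more with that number. Fezf1 was on in 0 of 4 CV cells with no Tas2r gene, 2 of 12 with 1 to 4, and 12 of 16 with 5 or more (75.0%, 47.6% to 92.7%). Its pooled level in these CV cells was 1.49, 179 and 860.2 CPM. In FP it was on in 0 of 8, 2 of 10 and 3 of 3 cells, at 1.35, 61.3 and 1039 CPM. In both libraries the level was higher in each step up, although in CV cells with 1 to 4 receptors 1 cell held 96.8% of the Fezf1 counts.

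Car7 was on in 2 of 4 CV cells with no Tas2r gene, 3 of 12 with 1 to 4, and 15 of 16 with 5 or more (93.8%, 69.8% to 99.8%), and in 1 of 8, 6 of 10 and 3 of 3 FP cells. Rnf128 was on in 0 of 4, 3 of 12 and 9 of 16 CV cells, and in 2 of 8, 6 of 10 and 3 of 3 FP cells. Its pooled level in CV was 157 CPM in cells with 1 to 4 receptors and 148 CPM in those with 5 or more, while the mean over cells was 56.4 and 156 CPM. Plac8 was on in 1 of 4, 6 of 12 and 13 of 16 CV cells, and in 1 of 8, 8 of 10 and 2 of 3 FP cells. Its pooled CV level was 2124, 2480 and 2291 CPM, where the first value rests on the cell of 4321 CPM. The median over cells was 13.8, 135 and 1941 CPM, and the mean 1089, 1097 and 2005 CPM, so the pooled levels and the cells' own levels gave different pictures. The median total of these CV cells was 145831.5, 109922.5 and 1741346 counts, so the number of receptors and the depth moved together, and their parts cannot be told apart over all CV cells.

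**Figure D2:**
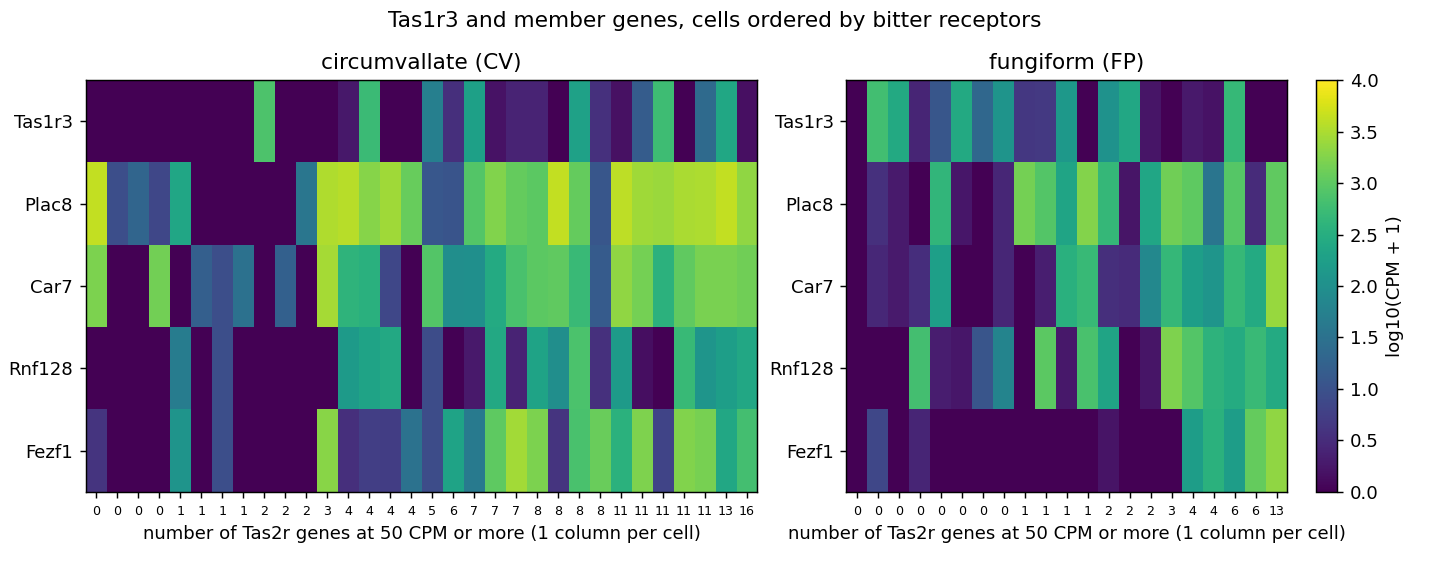
Colour shows log10(CPM + 1) of Tas1r3 and the 4 genes in each kept cell, with CV at the left and FP at the right and the cells ordered by the number of Tas2r genes at 50 CPM or more. High Fezf1 lies toward the cells with many receptors in both panels, and Plac8 is high across CV cells from 3 receptors upward with 3 exceptions.

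Restricting CV to the 16 cells with at least 500000 counts, a limit chosen after the values were seen, left cells with 4 to 16 Tas2r genes on. Fezf1 was then on in 10 of the 13 cells with 5 or more receptors, at 876 CPM (864 to 888), and in 0 of the 3 cells with 4 receptors, at 3.75 CPM (2.0 to 6.42). Car7 stood at 992 CPM in those 13 cells and 248 CPM in those 3. By pooled level Plac8 and Rnf128 went the other way, with 2394.0 CPM in the 13 cells and 2799.8 CPM in the 3 for Plac8, and 154 CPM in the 13 and 207 CPM in the 3 for Rnf128. The 13 cells had a median of 1862994 counts and the 3 a median of 1155577, and a group of 3 cells of 1 library bears little weight.

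Spearman correlations across cells are given as descriptions, since cells of a library share its preparation and differ in depth. Over the 32 CV cells the correlation of each gene with the number of Tas2r genes on was 0.55 for Plac8, 0.52 for Car7, 0.59 for Rnf128 and 0.69 for Fezf1. Of 2418 genes measured the same way, 61.5% reached 0.5 and the median was 0.54, so these values do not set the 4 genes apart. The number of receptors on itself had a correlation of 0.81 with the total count of the cell. Over the 16 deep CV cells the correlations were 0.38 for Plac8, 0.78 for Car7, -0.13 for Rnf128 and 0.37 for Fezf1, where 10.9% of 1913 genes reached 0.5. Only Car7 stayed past 0.5 there, and 5 of the 1913 genes (0.261%), Car7 included, had a value as high.

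In FP the same correlations, which belong to the values that chose the genes, were 0.55 for Plac8, 0.68 for Car7, 0.46 for Rnf128 and 0.61 for Fezf1 over 21 cells, where 3.68% of 1929 genes reached 0.5. Over the 16 deep FP cells they were 0.59, 0.62, 0.35 and 0.59 in the same order of genes, where 6.41% of 1668 genes did. In FP the number of receptors on had a correlation of 0.29 with the total count. Mitochondrial share had a correlation with the number of receptors of -0.56 in deep CV cells and -0.29 in deep FP cells, and its part was not tested.

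**Figure D3:**
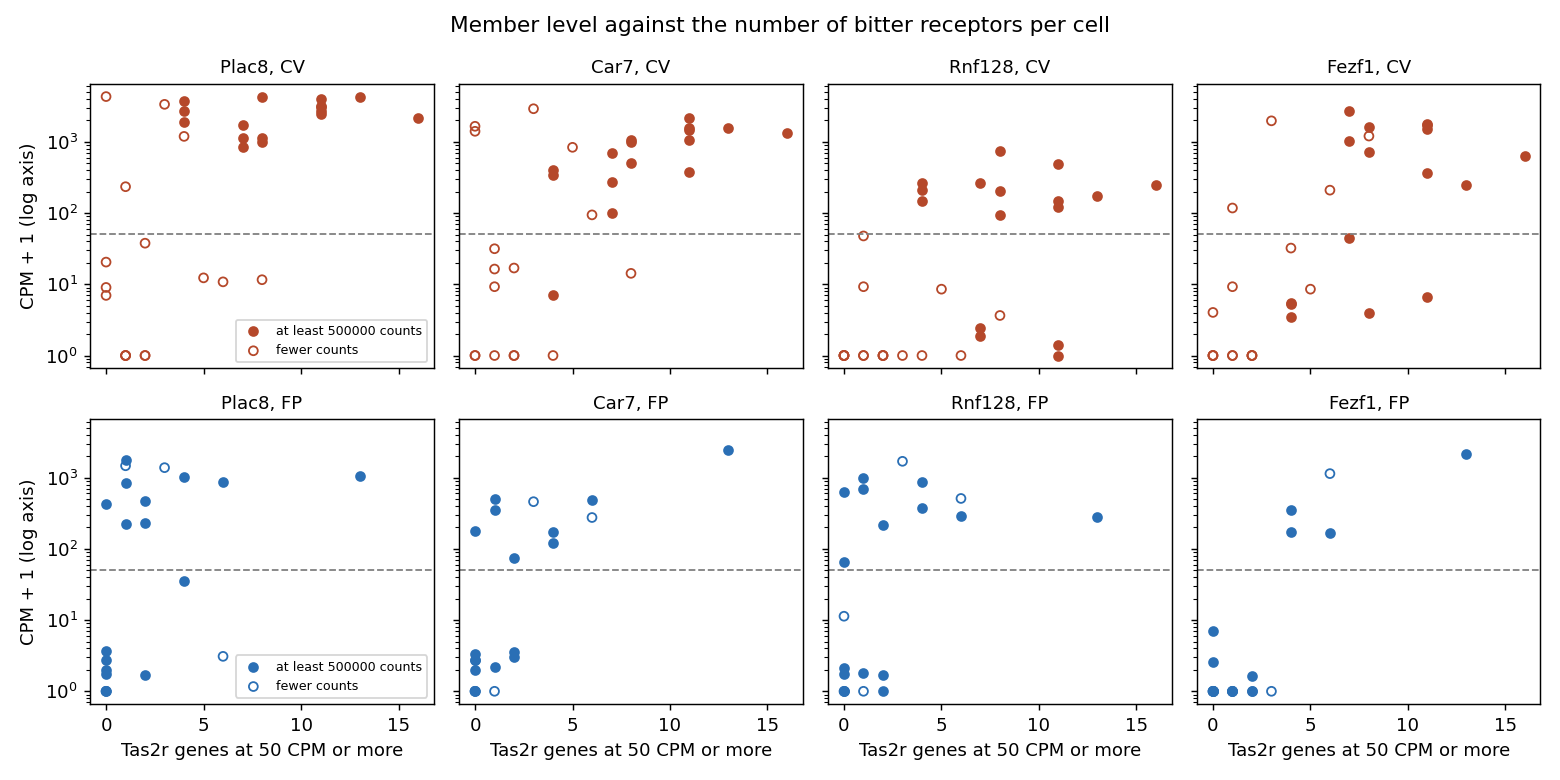
CPM + 1 on a log axis against the number of Tas2r genes at 50 CPM or more, 1 point per kept cell, with CV above FP, filled points for cells of at least 500000 counts, open points for shallower cells and a dashed line at 50 CPM. Among filled CV points Car7 is higher with more receptors (correlation 0.78), while Plac8 is on in all 16.

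Read the other way, CV cells with Fezf1 on had a median of 8 Tas2r genes on (1 to 16), against 2 (0 to 11) in CV cells with it off. In FP the medians were 6 (4 to 13) with Fezf1 on and 0.5 (0 to 3) with it off, and there the ranges did not overlap. Depth went with the same split in CV, with median totals of 1379884 counts in Fezf1-on cells and 195610 in the others. In deep CV cells the medians were 11 receptors (7 to 16) in 10 Fezf1-on cells and 5.5 (4 to 11) in 6 Fezf1-off cells. The deep ranges overlapped from 7 to 11 receptors. The summed Tas2r level of the pooled deep CV cells was 2422 CPM with Fezf1 on and 1473 CPM with it off.

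Bitter receptors differed in how often they were on together with Fezf1. Tas2r109 was on in 8 of 10 deep CV cells with Fezf1 on and in 1 of 6 with it off, with pooled levels of 151 and 13.9 CPM. Tas2r117 was likewise on in 8 of 10 and 1 of 6, with 308 and 44.5 CPM. Tas2r123 was on in 6 of 10 and 0 of 6, with 111 and 1.87 CPM. In 1 deep CV cell with Fezf1 off, Tas2r117 still reached 233 CPM. Car7 also went with these receptors over the deep CV cells. Its level had correlations of 0.61 with Tas2r109, 0.58 with Tas2r117 and 0.48 with Tas2r123. The same correlations were 0.48, 0.42 and 0.73 for Fezf1, and 0.01, -0.01 and 0.16 for Rnf128. Car7 was also at 0.55 with Tas2r107 and 0.53 with Tas2r110, and at -0.53 with Tas2r118. Its values are thus not particular to the receptors named for Fezf1.

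For other receptors the gap was narrower or turned round. Tas2r106 was on in 7 of 10 deep CV cells with Fezf1 on and in 5 of 6 with it off, with 174 and 239 CPM. Tas2r118 was also on in 7 of 10 and 5 of 6, with 133 and 275 CPM. Tas2r104, Tas2r105 and Tas2r107 were each on in 8 of 10 and 4 of 6. Over all CV cells, Tas2r106 was on in 9 of 14 with Fezf1 on and 11 of 18 with it off, and Tas2r118 in 8 of 14 and 7 of 18. The receptors named were picked after their values were seen, each share rests on 6 to 10 cells of 1 library, and reads of near-identical Tas2r paralogs may be assigned to the wrong copy.

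The same counts were made over all FP cells. Tas2r105 was on in 5 of 5 FP cells with Fezf1 on and 4 of 16 with it off, Tas2r104 in 4 of 5 and 0 of 16, and Tas2r102 in 3 of 5 and 0 of 16. Tas2r118 was on in 4 of 5 FP cells with Fezf1 on and in 2 of 16 with it off. Tas2r117 was on in 2 of 5 FP cells with Fezf1 on and 0 of 16 with it off, with pooled levels of 284 and 0.178 CPM. Tas2r109 was on in 1 FP cell of 21, which also had Fezf1 on, and Tas2r123 in 0 of 21, which allows a share of up to 14.3%. Among deep FP cells Tas2r105 was on in 4 of 4 with Fezf1 on and 3 of 12 with it off, and Tas2r104 in 3 of 4 and 0 of 12.

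**Figure D4:**
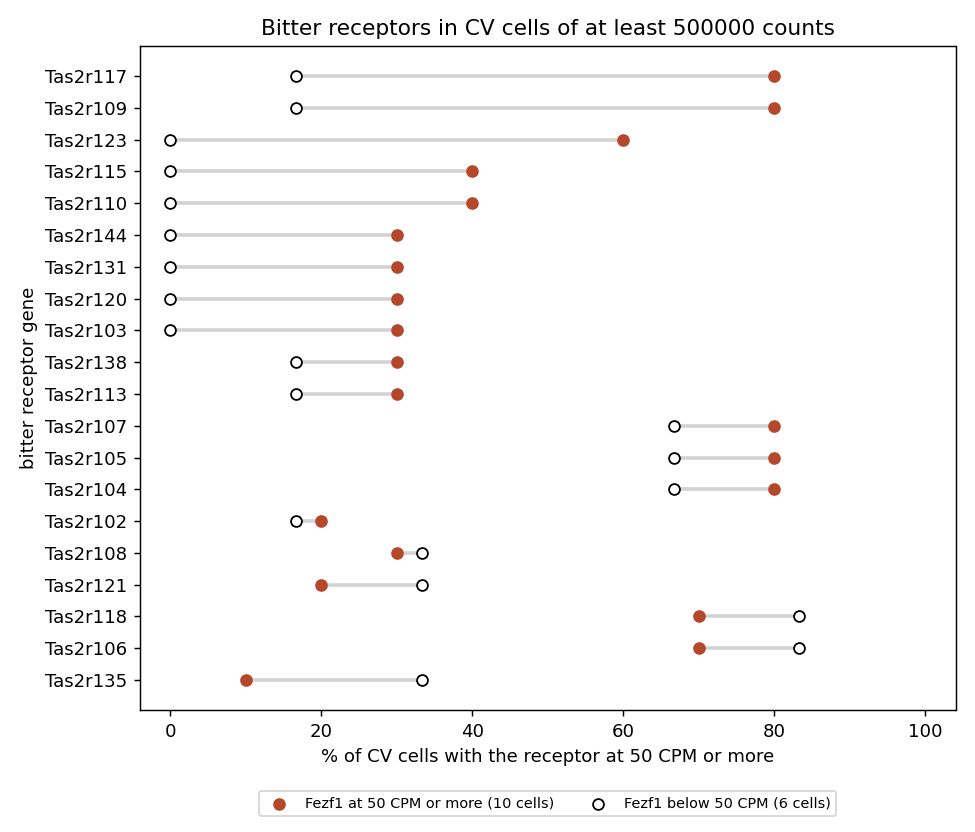
Share of deep CV cells with each bitter receptor at 50 CPM or more, for receptors on in at least 3 of the 16 cells, with filled points for the 10 cells with Fezf1 on and open points for the 6 with it off. Tas2r109, Tas2r117 and Tas2r123 have the widest gaps, and Tas2r106 and Tas2r118 are on in 7 of 10 with Fezf1 on and 5 of 6 with it off.

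The genes also differed in how they went with Tas1r3. By pooled level all 4 were lower in CV cells with Tas1r3 on than in the rest, Fezf1 and Car7 by more than 2-fold and Plac8 and Rnf128 by less, but for Fezf1 alone were the mean and the median over cells both lower too. Fezf1 stood at 108 CPM in the 7 CV cells with Tas1r3 on (101 to 115), against 995 CPM in the 25 others (981 to 1008), a ratio of 0.108 (0.101 to 0.116). Car7 stood at 431 CPM, against 1072 CPM, a ratio of 0.402 (0.388 to 0.416). Plac8 stood at 1767 CPM, against 2543 CPM, a ratio of 0.695, and Rnf128 at 109 CPM, against 161 CPM, a ratio of 0.679.

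On the log2(CPM + 10) scale these differences of CV cells with Tas1r3 on over off were -3.09 for Fezf1, -1.29 for Car7, -0.52 for Plac8 and -0.52 for Rnf128. Of 10527 genes, 28.7% were 2-fold lower and 22.7% were 2-fold higher in the cells with Tas1r3, with a median of -0.09, so 2 of 4 past 2-fold lower is to be read against a high background. Among deep CV cells alone, Fezf1 stood at 112 CPM in 5 cells with Tas1r3, against 1055 CPM in 11 without. Car7 stood at 423 CPM, against 1107 CPM, in the same cells. The gap in this depth class was about as wide as over all CV cells for both genes. This is no separate check of depth, because the pools share most of their counts. With Tas1r3 on, deep cells held 929 of the 931 Fezf1 counts and 3502 of the 3724 Car7 counts. With it off they held 19443 of 20789 and 20409 of 22408.

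As a mean over cells, Fezf1 was at 146 CPM with Tas1r3 on and 598 CPM with it off, and Car7 at 531 and 685 CPM. By the same mean Plac8 was at 1520 and 1558 CPM, and Rnf128 at 163 and 81.5 CPM, which turns its direction round. The medians over cells were 7.54 with Tas1r3 on and 31.2 CPM off for Fezf1, 370 and 274 CPM for Car7, 1138 and 1124 CPM for Plac8, and 7.54 and 1.47 CPM for Rnf128. With no Gnat3 limit the pooled log2 difference of Car7 was 0.035. Correlations with the level of Tas1r3 over the 32 CV cells were 0.32 for Fezf1, 0.21 for Car7, 0.14 for Plac8 and 0.27 for Rnf128, and over the 16 deep CV cells -0.03, -0.09, -0.26 and -0.33 in the same order.

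Shares did not follow the pooled levels for every gene. Fezf1 was on in 2 of 7 CV cells with Tas1r3 (28.6%, 3.67% to 71.0%) and 12 of 25 without (48%, 27.8% to 68.7%). Car7 was on in 6 of 7 (85.7%, 42.1% to 99.6%) and 14 of 25 (56%, 34.9% to 75.6%), which goes against its pooled level, so no order is read from the share. Plac8 was on in 5 of 7 and 15 of 25, and Rnf128 in 3 of 7 and 9 of 25. Without the adjoining barcodes, 1 of the 7 Tas1r3 cells drops out and Car7 was on in 6 of 6. The 2 CV cells with both Fezf1 and Tas1r3 on had Fezf1 at 710 and 250 CPM and Tas1r3 at 192 and 243 CPM.

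All 7 CV cells with Tas1r3 on also had a Tas2r gene on, so no CV cell shows the 4 genes with Tas1r3 alone. FP had 4 such cells, and in them Plac8, Car7 and Fezf1 were each on in 0 of 4 and Rnf128 in 1 of 4, at 63.8 CPM. Their pooled levels were 1.47 CPM for Plac8, 0.983 for Car7, 9.34 for Rnf128 and 1.72 for Fezf1. In the 4 FP cells with both Tas1r3 and a Tas2r gene on, the genes were on in 3, 2, 2 and 1 cells in that order.

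Over all FP cells, the differences of 8 cells with Tas1r3 on over 13 off were -3.39 for Fezf1, -1.67 for Car7, -1.09 for Plac8 and -2.18 for Rnf128. Of 9859 genes, 24.7% were 2-fold lower and 25.1% were 2-fold higher. These pooled differences were past 2-fold for all 4 in FP, where the values chose them. Whether the difference itself differs between CV and FP was not tested, with 1 library each.

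**Figure D5:**
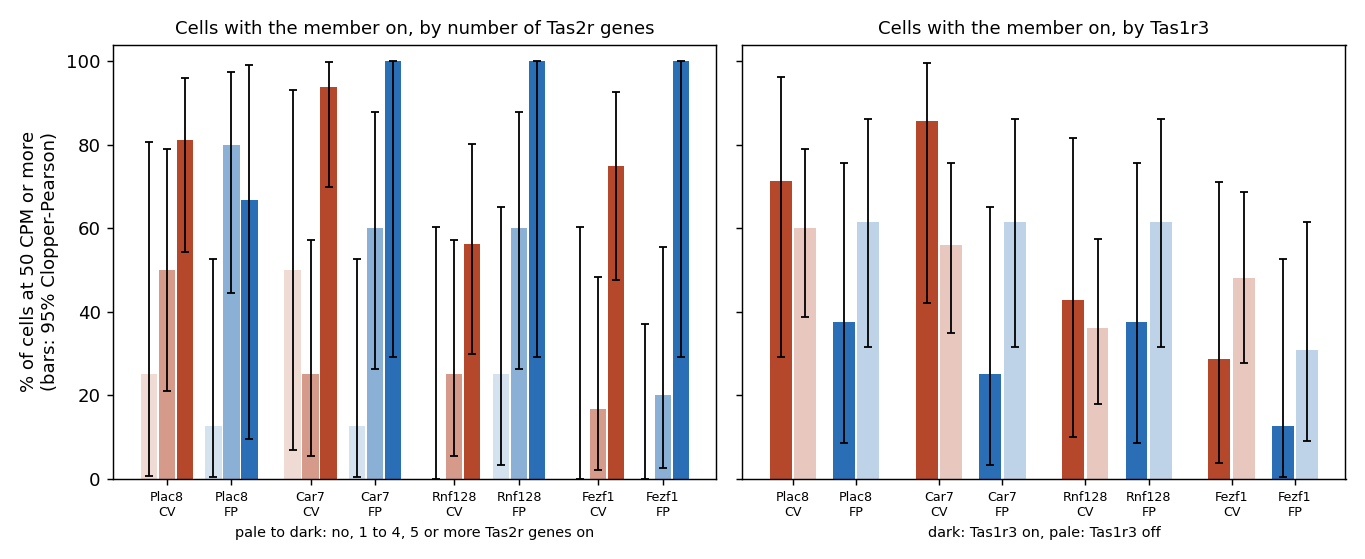
Share of kept cells with each gene at 50 CPM or more, with 95% Clopper-Pearson intervals, by the number of Tas2r genes on (left panel, no, 1 to 4, 5 or more) and by Tas1r3 (right panel, on beside off), CV left of FP. Fezf1 is on in 75.0% of CV cells with 5 or more receptors and in 28.6% of CV cells with Tas1r3, and the intervals are wide.

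All 4 were on in 8 of 32 CV cells, and these had 7 to 16 Tas2r genes on (median 11). None was on in 8 other CV cells, which had 0 to 2 (median 1). In FP all 4 were on in 3 of 21 cells, with 4 to 13 Tas2r genes on, and none was on in 6, with 0 to 2. The 8 CV cells with all 4 genes on were all of at least 500000 counts and the 8 with none were all below it, so depth moved with this split too, and its part was not tested.

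Pairs of genes are given beside how often each was on, which in CV was 20 cells for Plac8, 20 for Car7, 12 for Rnf128 and 14 for Fezf1. Of 14 CV cells with Fezf1 on, 12 had Car7, 12 had Plac8 and 8 had Rnf128 on. Of 5 FP cells with Fezf1 on, 5 had Car7, 5 had Rnf128 and 3 had Plac8 on. Over the 32 CV cells the correlation of levels with Fezf1 was 0.51 for Car7 and 0.51 for Rnf128. All 12 CV cells with Rnf128 on had Plac8 on, and all 12 were deep cells, where Plac8 was on in 16 of 16. In FP, 7 of 11 cells with Rnf128 on had Plac8 on. In deep CV cells the correlation of levels was 0.60 for Plac8 with Car7, 0.34 for Car7 with Fezf1, -0.33 for Plac8 with Fezf1 and 0.06 for Rnf128 with Fezf1, each over 16 cells.

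Among 2239 genes on in at least 8 CV cells, those most like each gene over the 32 CV cells by Spearman correlation had correlations of -0.40 to 0.54 with it in FP. For Fezf1 they were Camk2d, a subunit of calcium/calmodulin-dependent kinase II (0.84 in CV, 0.39 in FP), Vmn1r65, of the vomeronasal receptor family (0.84 and 0.54), and Gtf3c1, of RNA polymerase III transcription (0.82 and 0.26). In deep CV cells alone these were 0.77, 0.79 and 0.65. For Car7 they were Oxct1, an enzyme of ketone body use (0.81 and 0.27), Snhg3, a small nucleolar RNA host gene (0.79 and -0.10), and Cnn3, a calponin (0.74 and 0.37). Over the deep CV cells the values with Car7 were 0.64, 0.60 and 0.70.

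For Plac8 the genes were Tiam1, a Rac activator (0.87 in CV, -0.00 in FP), Atp5j2, of ATP synthase (0.86 and 0.03), and Eif4h, a translation factor (0.84 and -0.40). For Rnf128 they were Fnbp1l, a membrane-bending protein (0.86 and -0.02), Pcmtd1 (0.84 and -0.02) and Zdhhc9, a palmitoyltransferase (0.78 and 0.02). Over the deep CV cells the values were 0.59, 0.40 and 0.43 for the Plac8 genes in order, and 0.68, 0.72 and 0.23 for the Rnf128 genes. The likeness over all 32 CV cells moves with depth, since the 4 genes had correlations of 0.57 to 0.65 with total counts.

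Relatives of the 4 genes were counted the same way. Of 3 carbonic anhydrases with at least 10 CPM in either pool, Car7 was higher in CV, Car2, the widespread cytosolic enzyme, was lower at 22.1 CPM in CV against 76.4 CPM in FP, and Car11, a relative without catalytic activity, was within 2-fold at 77.2 against 57.8 CPM. Of 8 protease-associated RING ligases, the family of Rnf128, 0 were higher and 1 was lower in CV, with a median of -0.60. That 1 was Rnf149, at 12.3 CPM in CV against 105 CPM in FP. Rnf150, Rnf167 and Znrf3 were also lower, by less than 2-fold on the log2(CPM + 10) scale as for Rnf128, with -0.71, -0.49 and -0.79. Rnf130, Rnf43 and Rnf13 were higher by less than 2-fold, with 0.64, 0.20 and 0.08. Of the other Plac8 and Fez family genes, Cnfn had 0 counts in CV and 3.36 CPM in FP, too low for the count.

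Of the listed bitter receptors, 21 of 27 were past 2-fold higher in pooled CV cells and 0 lower, with a median of 1.36. Over all genes 21% were 2-fold higher and 17% lower. Many of these receptors reached 10 CPM, the limit for the count, in CV alone, such as Tas2r107 at 213 CPM against 0 counts. Such receptors could not be called lower. CV listed 34 Tas2r genes and FP 24, and a missing gene was taken as 0, so nothing about the 4 genes is drawn from this count. Of the 3 sweet and umami subunits, Tas1r1 was lower in the CV pool, at 73.9 CPM against 614 CPM in FP. By cells it went the other way, on in 8 of 32 CV cells and 3 of 21 FP cells. Tas1r3 stood at 99.2 CPM in CV and 132 CPM in FP. Of 9 genes of type II transduction, 1 (Calhm1, of the ATP release channel) was higher in CV, at 12 CPM against 0.309 CPM, and 0 were lower, with a median of -0.20. Calhm1 was on in 1 CV cell and 0 FP cells. Kit, Etv1 and Tmem45b, a set from the same earlier values that went with sweet and umami receptors in FP, were all lower in CV, at 0.440, 5.62 and 4.13 CPM against 159, 59.6 and 376 CPM in FP. The fourth of that set, Foxa2, was at 5.01 CPM in CV and 0 counts in FP.

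Markers of other cells differed between the libraries beside these values. In pooled CPM, the 8 leukocyte markers summed to 12.8 in CV and 0.486 in FP, with 3 and 5 of them at 0 counts, and the 7 keratinocyte markers to 1.02 in CV and 132 in FP. Leukocyte marker sums ran from 0 to 180 CPM per CV cell and from 0 to 3.59 per FP cell. The 6 type III markers summed to 41.4 in CV and 2.16 in FP, the 5 neuron markers to 83.4 and 138, and the 4 type I markers to 84.9 and 127. No kept cell had 3 markers of any of these other types on, and their part in the levels of the 4 genes was not tested.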

How the data were processed

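The authors deposited raw counts per gene and barcode, 1 table per papilla, of sorted GFP-positive taste cells captured on the BD Rhapsody system. The submitters' processing notes name Bowtie2 2.3.4.1, Seurat 2.3.4, cutadapt 2.10 and the build mm10. Per the series' design text, an error correction based on count distributions was applied. No source used here says whether molecular barcodes were collapsed. The stated Gnat3 limit was read as ln(1 + counts per 10000) above 0.9. No mitochondrial limit was set and doublets were not called. A gene missing from 1 table was taken as 0 there.

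Counts of kept cells were pooled and given as CPM with exact Poisson intervals. Ratios carry exact conditional binomial intervals and shares Clopper-Pearson intervals, all at 95%. Ratios on a log scale used a pseudocount of 10 CPM. The code was tested on simulated data. Python 3.11.15, numpy 2.4.6, pandas 2.3.3 and scipy 1.17.1 were used. The 4 genes, the gene lists and the marker lists were chosen with earlier results of these data known. Genes named beside them were the 3 with the highest correlation per member over CV cells, among genes on in at least 8. Both samples were grouped by their tissue label.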

Additional observations from a re-analysis of the deposited data

Results flagged for a closer look

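Some barcodes that the Gnat3 limit left out had 1 or more of the 4 genes at 50 CPM or more and above 3 counts. The deepest, a CV barcode of 4088415 counts with 14.9 CPM of Gnat3, 2211 CPM of Tas1r2, 632 CPM of Tas1r3 and 1 Tas2r gene on, had Plac8 at 1563 CPM, Car7 at 2026 CPM and Rnf128 at 101 CPM, with Fezf1 at 1.47 CPM. A CV barcode of 161045 counts, 93.2% of them mitochondrial, with 1 Tas2r gene on, had Plac8 at 894 CPM and Fezf1 at 671 CPM. A CV barcode of 46257 counts with 5 Tas2r genes on had Car7 at 173 CPM and Fezf1 at 108 CPM, from 8 and 5 counts. An FP barcode of 252069 counts with 5 Tas2r genes on and 67.4 CPM of Gnat3 had Car7 at 575 CPM and Fezf1 at 2432 CPM. Of the values above, these barcodes enter only the Car7 difference given with no Gnat3 limit. There the deepest barcode joins the CV cells with Tas1r3 on.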

How the results depend on the processing

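No result of CV over FP changed direction under any alternative run, while 1 correlation and the Tas1r3 differences of Car7 and Rnf128 did. With at least 500000 counts per cell (chosen after seeing the data), the correlation of Rnf128 with the number of Tas2r genes on in CV was -0.13. Differences of CV over FP (log2) follow in the order Plac8, Car7, Rnf128 and Fezf1. With no Gnat3 limit they were 2.86, 2.60, -0.56 and 2.12. With each cell thinned to 71770 counts, which left out 6 CV cells, they were 2.03, 1.63, -1.27 and 1.60. As the mean CPM per cell they were 1.71, 1.41, -1.57 and 1.35. Without the highest cell of each library they were 2.58 for Plac8, 2.86 for Car7 and 3.06 for Fezf1. Without the adjoining barcodes they were 2.41 for Plac8 and 2.14 for Fezf1, and with at least 500000 counts 2.56 for Plac8, -0.77 for Rnf128 and 2.22 for Fezf1. Shares of CV cells on were 39.3% for Plac8 and for Car7 with no Gnat3 limit, and 80.0% for Car7 at 100000 counts or more. With at least 500000 counts they were 100%, 93.8%, 75.0% and 62.5%, and at 1 count or more 84.4%, 81.2%, 59.4% and 75.0%. Of CV cells with Tas1r3, Plac8 and Car7 were on in 100% with at least 500000 counts, and Car7 also in 100% with at least 100000 counts and without the adjoining barcodes. With both genes called at 1 count or more, Rnf128 was on in 82.4% and Fezf1 in 94.1%. With no minimum CPM the genes past 2-fold in either direction were 19% for CV over FP and 24.7% for Tas1r3 on over off in CV. All alternatives of the Tas1r3 difference in CV were chosen after seeing the data. Thinned, it was -0.016, -0.88, 0.88 and -1.98 for Plac8, Car7, Rnf128 and Fezf1, and as the mean CPM per cell -0.035, -0.36, 0.92 and -1.96. With no Gnat3 limit it was -0.36, 0.035, -0.35 and -3.38. It was -1.41 for Rnf128 without the highest cell, -1.37 for Car7 with at least 500000 counts, and for Plac8 -0.57 without mitochondrial and ribosomal RNA and -0.45 without the adjoining barcodes. The causes were not tested. All other settings of these differences and shares stayed inside the counting intervals. No paired analysis was possible because each papilla has 1 library and no test was made. Depth limits the shallow CV cells most, where 2 counts can make 50 CPM.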
